A study of Homo sapiens with 6 samples.

Results

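The genes described here are 10 alpha and beta tubulin isotypes, namely the 7 beta tubulins TUBB, TUBB2A, TUBB2B, TUBB3, TUBB4A, TUBB4B and TUBB6 and the 3 alpha tubulins TUBA1A, TUBA1B and TUBA1C. They were chosen by symbol and not by their levels, although earlier results of these data were known. The symbol TUBB3 covers 2 gene identifiers, so the 10 symbols gave 11 genes out of 36532 in the files, and all 11 reached 1 TPM (transcript abundance per length, scaled to the same total in each library) in at least 1 library. RNA was measured in 4 human cell lines of atypical teratoid rhabdoid tumor (AT/RT), a malignant childhood brain tumor that lacks the chromatin remodeler SMARCB1. There was 1 library of CHLA 02, 1 of CHLA 05, and a pair of technical replicates for each of CHLA 04 and CHLA 06. The labels name no treatment, and all lines grew in suspension in DMEM:F12 with EGF, basic FGF and B-27, a medium used for neural stem cells. The study placed CHLA 02, CHLA 04 and CHLA 05 in the neurogenic group of AT/RT and CHLA 06 in another, and it used TUBB3 protein as a neuronal marker.

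Alpha and beta tubulin pair into dimers, and the dimers assemble into the microtubules of the spindle, cilia and neuronal processes. Vertebrates make each subunit from several genes whose proteins differ mainly in the acidic tail at the carboxyl end, where microtubule-associated proteins bind and enzymes add or remove amino acids. In the developing brain, TUBA1A, TUBB2B and TUBB3 are typical of young neurons, while TUBB, TUBA1B and TUBA1C are made in many dividing cells.

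The coding end of the acidic tail is shown for the beta isotypes as the last 60 bases before the stop codon, which hold 20 codons. They were read from GRCh38 by the transcript coordinates, 5′ to 3′ on the coding strand, with in-frame glutamate codons in capitals.
TUBB: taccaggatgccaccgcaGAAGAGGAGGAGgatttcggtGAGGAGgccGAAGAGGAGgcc
TUBB2A: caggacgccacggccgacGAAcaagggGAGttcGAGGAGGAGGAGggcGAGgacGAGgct
TUBB2B: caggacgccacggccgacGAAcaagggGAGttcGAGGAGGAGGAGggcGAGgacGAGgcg
TUBB3: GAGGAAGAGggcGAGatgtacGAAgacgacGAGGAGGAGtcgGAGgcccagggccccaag
TUBB4A: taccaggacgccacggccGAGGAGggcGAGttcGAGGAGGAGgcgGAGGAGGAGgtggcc
TUBB4B: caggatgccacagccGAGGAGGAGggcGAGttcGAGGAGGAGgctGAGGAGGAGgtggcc
TUBB6: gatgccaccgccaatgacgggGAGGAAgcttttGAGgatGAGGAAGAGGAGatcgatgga
These stretches lie at chr6:30724335-30724394 (plus strand, TUBB), chr6:3153866-3153925 (minus, TUBB2A), chr6:3224754-3224813 (minus, TUBB2B), chr16:89935742-89935801 (plus, TUBB3) and chr19:6495167-6495226 (minus, TUBB4A). The others lie at chr9:137243494-137243553 (plus, TUBB4B) and chr18:12326068-12326127 (plus, TUBB6). All are coding sequence of an exon. The TUBB2A and TUBB2B stretches are alike except in the last codon. Glutamate codons numbered 10 of 20 in TUBB4B, 9 in TUBB, TUBB3 and TUBB4A, 8 in TUBB2A and TUBB2B, and 7 in TUBB6.

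Over the whole coding sequence, identity was 98.2% between TUBB2A and TUBB2B, between 81.3% and 98.2% over the 21 beta pairs (median 86.7%), and between 96.3% and 97.3% over the 3 alpha pairs. Alpha and beta sequences shared between 54.0% and 56.3% of aligned bases. Because the reads were 125 bases long, each gene's main transcript was also cut into all windows of that length. In TUBB2A, 51.9% of windows had an identical copy outside the gene, and in TUBB2B 42.9% did. The figure was 27.7% in TUBA1B, 19.2% in TUBA1A and 8.86% in TUBA1C, and at most 3.71% in TUBB, TUBB3, TUBB4A, TUBB4B and TUBB6. Levels of TUBB2A against TUBB2B, and of TUBA1A against TUBA1B and TUBA1C, therefore depend on how the mapper placed such reads.

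The libraries held between 10265899 and 20520229 reads on transcripts, and 1 read on a transcript of 1000 bases was worth between 0.117 and 0.236 TPM. Mitochondrial transcripts took between 1.83% and 8.67% of TPM. Each line was 1 culture, so no test between lines was possible, and the SD of CHLA 04 and CHLA 06 (n = 2) is technical. A difference is called past 2-fold where the line means of log2(TPM + 2) differ by over 1. Fold changes are ratios of mean TPM. In these bulk libraries, fewer cells of a type and less RNA per cell cannot be told apart.

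CHLA 06 lay below the other lines beyond the technical difference in TUBB2A, TUBB2B, TUBB4A and TUBA1A, and CHLA 04 lay below them in TUBA1C. Of the 11 genes, 8 spanned over 2-fold between the highest and the lowest line, against 42.0% of the 16343 genes with at least 1 TPM in a library. The median span was 2.20 on the log2 scale for the 11 genes and 0.86 for all genes. The 3 genes within 2-fold were TUBB, TUBB6 and the main TUBB3 gene. CHLA 06 was also the lowest line for TUBB and TUBA1B, but there its distance to the next line was within the technical difference.

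**Figure D1:**
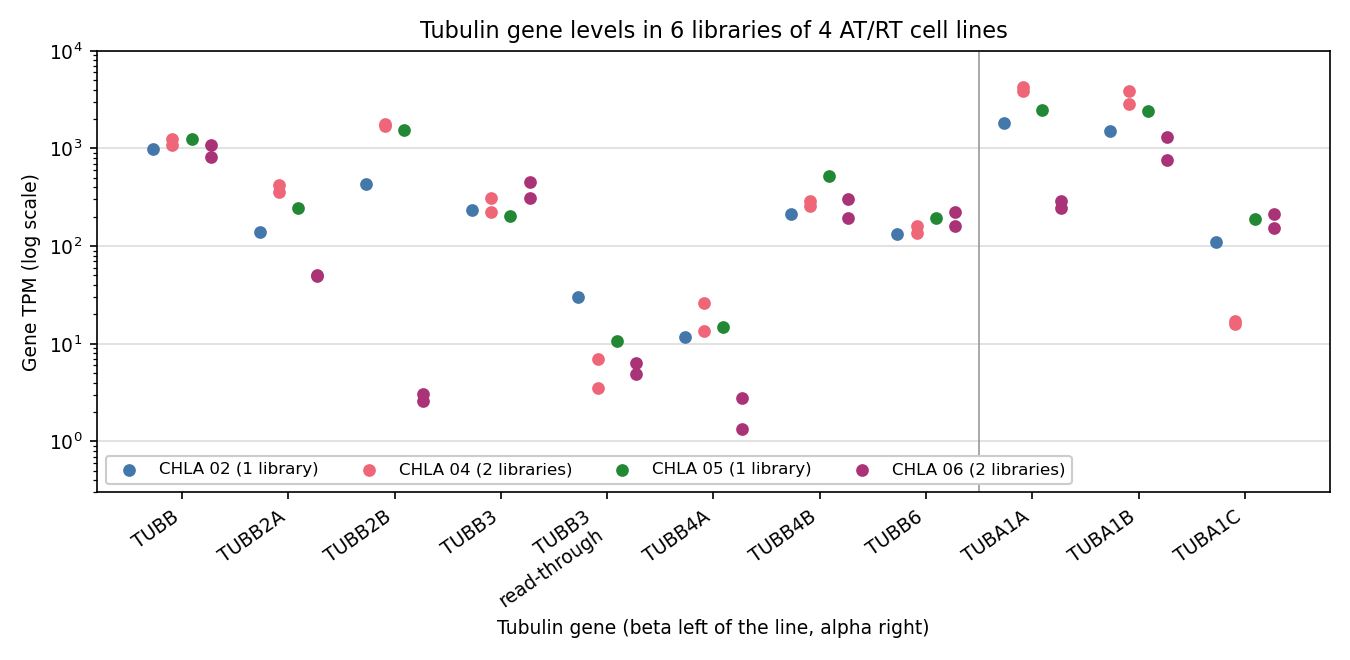
Level of each tubulin gene (TPM, log axis) in each of the 6 libraries, with 1 point per library coloured by cell line. TUBB2B runs from 2.60 TPM in CHLA 06 to 1773 in CHLA 04, while all 6 points of TUBB lie between 819 and 1260.1.

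TUBB2B, a beta tubulin of the developing cortex whose mutation causes brain malformations, had the widest span (chr6:3224261-3231730, GRCh38). It stood at 435 TPM in CHLA 02, 1713 and 1773 in the CHLA 04 replicates, 1536 in CHLA 05, and 2.60 and 3.03 in the CHLA 06 replicates. The CHLA 06 libraries were far below all others, and no 2 lines overlapped. The mean was 1743 ± 42.3 TPM (SD, n = 2) in CHLA 04 and 2.82 ± 0.30 (n = 2) in CHLA 06, a 618-fold ratio. In CHLA 06 these values rested on 40 and 52 reads, with 95% Wilson intervals of 1.91 to 3.55 and 2.31 to 3.98 TPM that cover counting error only. Of these reads, 14 and 7 were assigned to a second transcript, ENST00000473006, and the TUBB2B span overlaps that of 1 other gene. The part of reads from that gene, or from windows shared with TUBB2A, was not tested. The order was CHLA 04, CHLA 05, CHLA 02 and CHLA 06, and its gaps of 0.18, 1.82 and 6.50 (log2) were all wider than the largest technical difference of 0.13. TUBB2B was the 30th most abundant gene in 1 library of CHLA 04, and it ranked 12289th in 1 library of CHLA 06.

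TUBB2A, which lies beside TUBB2B on the short arm of chromosome 6 (chr6:3153669-3157526), followed the same order with a smaller span. Its level was 141 TPM in CHLA 02, 361 and 422 in the CHLA 04 replicates, 243 in CHLA 05, and 49.7 and 50.5 in the CHLA 06 replicates. No lines overlapped, and each gap in the order was wider than the technical difference of 0.22. The ratio of CHLA 04 to CHLA 06 was 7.81. The part of reads from the windows it shares with TUBB2B in these values was not tested. Of all genes, 29.4% differed past 2-fold between CHLA 06 and CHLA 04, with a median difference of -0.19 (log2). Of the 8 other genes within 250 kb of TUBB2B with at least 1 TPM, 3 did so, with a median of -0.53. SLC22A23, named after its values were seen, had the lowest difference of these at -4.86, and NQO2 the highest at 1.92.

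TUBB4A, a beta tubulin of the nervous system, was low in all libraries (chr19:6494319-6502848). It had 11.8 TPM in CHLA 02, 26.4 and 13.5 in the CHLA 04 replicates, 14.7 in CHLA 05, and 1.35 and 2.81 in the CHLA 06 replicates, from 23 to 193 reads. CHLA 06 lay below the others, and the other 3 lines overlapped or lay within the technical difference of 0.87. CHLA 04 exceeded CHLA 06 by 9.60-fold, and by 14.7-fold without CHLA 06 replicate 2 and 6.50-fold without CHLA 04 replicate 1.

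TUBB3, the neuronal beta tubulin and the marker named by the study, did not share this pattern. The main gene (ENSG00000258947, chr16:89921392-89938761) had 235 TPM in CHLA 02, 308 and 221 in the CHLA 04 replicates, 205 in CHLA 05, and 311 and 455 in the CHLA 06 replicates. CHLA 06 held the 2 highest values, but its lower library exceeded the higher library of CHLA 04 by little. Line means ran in the order CHLA 06 (383 ± 102, n = 2), CHLA 04 (264 ± 61.3, n = 2), CHLA 02 and CHLA 05. The widest pair, CHLA 06 over CHLA 05, was 1.87-fold or 0.87 on the log2 scale. No gap between neighbours (0.53, 0.15 and 0.20) exceeded the technical difference of 0.55 in CHLA 06. Without CHLA 06 replicate 1, the span was 1.15 and past 2-fold. Recovered reads scaled to the library total, without division by transcript length, gave 1.03. That scale was added after the data were seen.

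The other TUBB3 identifier (ENSG00000198211, chr16:89919165-89936092) holds 1 transcript that starts in the upstream gene MC1R, the melanocortin receptor, and reads through into TUBB3. It had 30.4 TPM in CHLA 02, 6.90 and 3.55 in the CHLA 04 replicates, 10.5 in CHLA 05, and 6.42 and 4.93 in the CHLA 06 replicates. CHLA 02 was 5.81-fold above CHLA 04, and the CHLA 04 and CHLA 06 libraries overlapped. MC1R itself, which is not a member, had 15.1 TPM in CHLA 02, between 4.43 and 9.19 in CHLA 04 and CHLA 05, and 22.1 and 23.9 in CHLA 06, so its order differed from that of the read-through transcript. The read-through model overlaps the main TUBB3 gene, and reads in the common part cannot be assigned to 1 of them from the files.

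Among all 10686 genes with a mean of at least 10 TPM, the 5 whose centred log2 values lay nearest to TUBB3 over the 6 libraries were C2CD2L, PHF23, IPO4, APRT and STX1A. Their root mean square distances were between 0.135 and 0.175, against a median of 0.573 over all genes. Those nearest to TUBB2B were FAM107A, DMD, ACSS1, DLL3 and PTPRZ1, at distances between 0.375 and 0.596 and a median of 3.74. FAM107A, for example, had 224 TPM in CHLA 02, 792 and 1361 in the CHLA 04 replicates, 539 in CHLA 05, and 0.98 and 1.34 in the CHLA 06 replicates.

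TUBB, the beta tubulin of most dividing cells, had a small span (chr6:30720201-30725426). Its values were 992 TPM in CHLA 02, 1079.5 and 1239.7 in the CHLA 04 replicates, 1260.1 in CHLA 05, and 819 and 1086 in the CHLA 06 replicates. The lines overlapped, the highest and lowest means were 1.32-fold apart, and no neighbours differed beyond the technical difference of 0.41. TUBB stood above 99.2% of all genes in each library.

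TUBB6, a widely expressed beta tubulin (chr18:12307669-12344320), had 134 TPM in CHLA 02, 137 and 161 in the CHLA 04 replicates, 194 in CHLA 05, and 160 and 225 in the CHLA 06 replicates. Its lines overlapped and spanned 1.45-fold, with all gaps within the technical difference of 0.48. TUBB4B, a broadly expressed beta tubulin that is also a tubulin of cilia (chr9:137241213-137243707), had 212 TPM in CHLA 02, 257 and 292 in the CHLA 04 replicates, 525 in CHLA 05, and 196 and 305 in the CHLA 06 replicates. CHLA 05 was above all other libraries and 2.48-fold above CHLA 02, while the remaining lines overlapped.

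TUBA1A, the main alpha tubulin of young neurons and the gene most often mutated in tubulin-related lissencephaly, had the widest span among the alpha tubulins (chr12:49184796-49189324). It reached 1829 TPM in CHLA 02, 3915 and 4247 in the CHLA 04 replicates, 2452 in CHLA 05, and 246 and 287 in the CHLA 06 replicates. No lines overlapped, and the gaps of 0.73, 0.42 and 2.77 all exceeded the technical difference of 0.22. The mean of CHLA 04 (4081 ± 235, n = 2) was 15.3-fold that of CHLA 06 (266 ± 29.5, n = 2). In 1 library TUBA1A was the 7th most abundant of all genes.

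TUBA1B, an alpha tubulin of most cell types (chr12:49127782-49131397), ran in the same order with less separation. It had 1509.7 TPM in CHLA 02, 2837 and 3903 in the CHLA 04 replicates, 2394 in CHLA 05, and 755 and 1318 in the CHLA 06 replicates. CHLA 06 was lowest and CHLA 04 highest, but the technical replicates of CHLA 06 differed by 0.80 on the log2 scale, and each gap between neighbouring lines (0.47, 0.66 and 0.60) was smaller than that. The ratio of CHLA 04 to CHLA 06 was 3.25. On the transcript ENST00000336023 alone, CHLA 05 and not CHLA 04 was highest, as described with the transcripts below.

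TUBA1C, another broadly expressed alpha tubulin, moved the other way (chr12:49188736-49274603). Its levels were 111 TPM in CHLA 02, 16.1 and 17.2 in the CHLA 04 replicates, 188 in CHLA 05, and 152 and 211 in the CHLA 06 replicates. CHLA 04 stood alone at the low end, at 16.6 ± 0.79 (n = 2), and CHLA 05 was 11.3-fold above it. On recovered reads without division by length the ratio was 20.9. CHLA 05 and CHLA 06 did not differ beyond the technical difference of 0.46. The span of TUBA1C overlaps that of TUBA1A, the gene with the highest TPM of the family in CHLA 04. Only the TUBA1C transcript ENST00000549554 reaches into it, and that transcript had 0 reads in both CHLA 04 libraries. Around TUBA1A, 7 of 18 other genes within 250 kb differed past 2-fold between CHLA 06 and CHLA 04, against 29.4% of all genes. Their differences ran from -5.10 for C1QL4 (named after its values were seen) to 1.13.

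Pairs of lines were then compared. Between CHLA 06 and CHLA 04, 6 of 11 genes were past 2-fold, against 29.4% of all genes. TUBB2B (-8.50), TUBA1A (-3.93), TUBB2A (-2.91), TUBB4A (-2.39) and TUBA1B (-1.74) were lower in CHLA 06, and TUBA1C (3.28) was higher. The median of all genes differed by -0.19 in the same comparison and was not subtracted from these differences. Between CHLA 06 and CHLA 05, 6 of 11 were past 2-fold, against 25.9% of all genes, and all 6 were lower in CHLA 06. They were TUBB2B (-8.32), TUBA1A (-3.20), TUBB2A (-2.23), TUBB4A (-2.06), TUBA1B (-1.26) and TUBB4B (-1.10), with the median of all genes at -0.17. Without CHLA 06 replicate 1, TUBA1B (-0.86) and TUBB4B (-0.78) fell short of 2-fold here.

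Between CHLA 02 and CHLA 06, 5 of 11 genes were past 2-fold, against 9.32% of all genes. TUBB2B (6.50), TUBA1A (2.77), the TUBB3 read-through gene (2.08), TUBB4A (1.78) and TUBB2A (1.46) were higher in CHLA 02. TUBA1C and the main TUBB3 gene had negative differences of -0.68 and -0.67. All genes had a median of 0.04 in this pair. The comparisons share lines, so they are not independent of each other.

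Within the 3 neurogenic lines, CHLA 05 and CHLA 04 differed past 2-fold in 1 of 11 genes, against 16.6% of all genes. That gene was TUBA1C, 3.35 higher in CHLA 05. A further gene passed when either CHLA 04 library was left out, the read-through gene (1.18) without replicate 1 and TUBB4B (1.02) without replicate 2. CHLA 02 and CHLA 04 differed past 2-fold in 6 of 11, against 16.5% of all genes. TUBB2B (-2.00), TUBA1A (-1.16), TUBB2A (-1.46) and TUBA1B (-1.14) were lower in CHLA 02, and TUBA1C (2.60) and the read-through gene (2.20) were higher. On recovered reads without division by length, the difference in TUBA1B was -0.93 and short of 2-fold. Without CHLA 04 replicate 2 it was -0.91, while TUBB4A passed at -1.04. The TUBA1B transcript ENST00000336023 had 1189 TPM in CHLA 02 and 1234 and 1247 in the CHLA 04 replicates. ENST00000550367 had 10.6 TPM against 874 and 1890, and ENST00000332858 had 223 against 558 and 697. For ENST00000550367, a difference between lines and one in how libraries were made cannot be told apart, as described below. CHLA 02 and CHLA 05 differed in 3 of 11, against 19.6% of all genes, with TUBB2B (-1.82) and TUBB4B (-1.30) lower and the read-through gene (1.37) higher in CHLA 02.

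**Figure D2:**
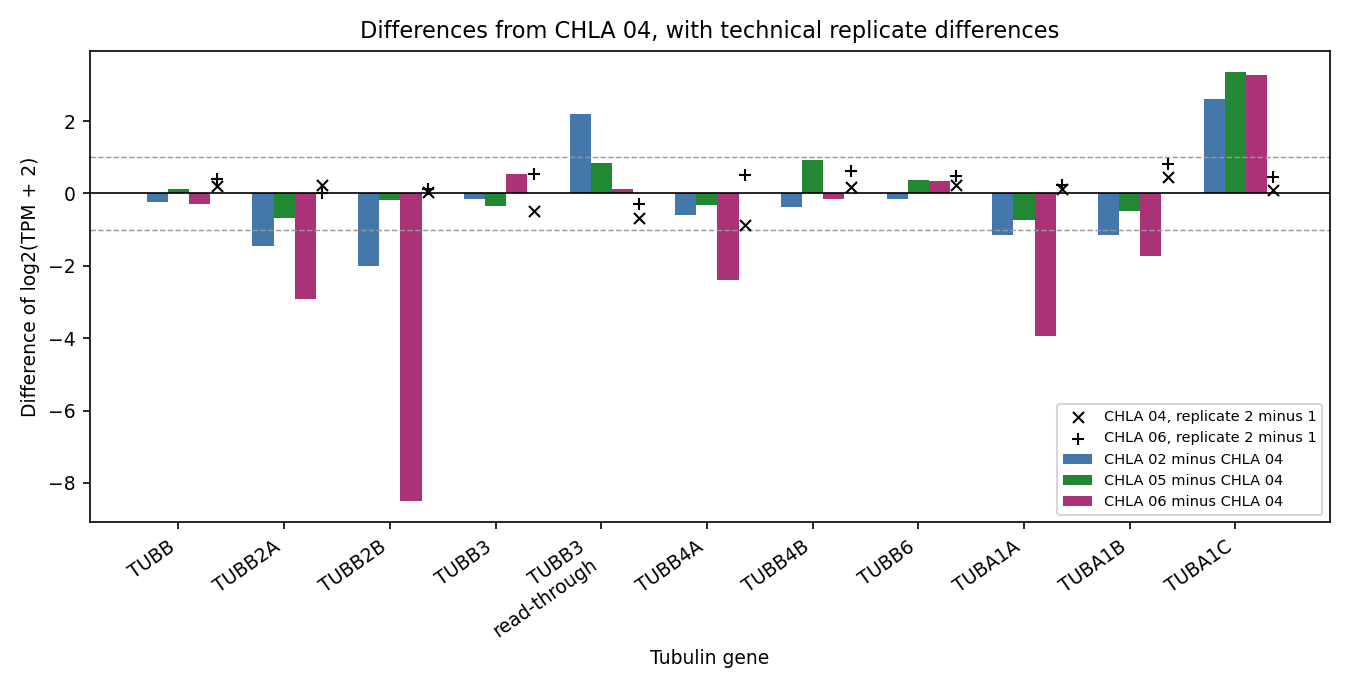
Difference of each line from CHLA 04 in mean log2(TPM + 2) for each tubulin gene (bars), with replicate 2 minus replicate 1 of CHLA 04 (x) and CHLA 06 (+). Dashed lines mark 2-fold, and the bar of TUBB2B in CHLA 06 reaches -8.50 while no technical difference passes a dashed line.

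None of the 11 genes differed past 2-fold between the technical replicates of CHLA 04 (0 of 11, against 3.98% of all genes) or of CHLA 06 (0 of 11, against 0.936%). In CHLA 06, however, 10 of 11 were higher in replicate 2, with a median difference of 0.46, while 50.3% of all genes were higher there and their median was 0.00. In CHLA 04, 8 of 11 were higher in replicate 2, with a median of 0.12, while 44.1% of all genes were higher there and their median was -0.03. The summed level of 6 proliferation markers (MKI67, TOP2A, PCNA, MCM2, CCNB1 and CDK1) also differed between technical replicates, at 1032 and 1723 TPM in CHLA 04 and 712 and 1168 in CHLA 06. It was 791 in CHLA 02 and 1554 in CHLA 05. Its part in the tubulin levels was not tested.

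The composition of each subunit pool was computed as shares of summed TPM. The 7 beta tubulins, without the read-through gene, summed to 2161 TPM in CHLA 02, 3881 and 4122 in the CHLA 04 replicates, 3977 in CHLA 05, and 1539.7 and 2127 in the CHLA 06 replicates. CHLA 02 and the higher CHLA 06 library were close, and the highest line mean was 2.18-fold the lowest. The 3 alpha tubulins summed to 3449 TPM in CHLA 02, 6768 and 8167 in the CHLA 04 replicates, 5034 in CHLA 05, and 1153 and 1816 in the CHLA 06 replicates. No lines overlapped in summed alpha tubulin, which spanned 5.03-fold. Alpha exceeded beta 1.60-fold in CHLA 02, 1.74-fold and 1.98-fold in CHLA 04 and 1.27-fold in CHLA 05, whereas in CHLA 06 the ratio was below 1, at 0.749 and 0.854. Both pools together took between 1.06% and 1.23% of all TPM in CHLA 04 and between 0.269% and 0.394% in CHLA 06.

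TUBB2B was the most abundant beta tubulin in CHLA 04, at 43.6% ± 0.79 of the pool (SD, n = 2), and in CHLA 05, at 38.6%. TUBB was the most abundant in CHLA 06, at 52.1% ± 1.5 (n = 2), and in CHLA 02, at 45.9%. The share of TUBB2B was 20.1% in CHLA 02 and 0.16% ± 0.02 (n = 2) in CHLA 06. TUBB3 made up 10.9% of the beta pool in CHLA 02, 7.93% and 5.36% in the CHLA 04 replicates, 5.15% in CHLA 05, and 20.2% and 21.4% in the CHLA 06 replicates. CHLA 06 was above all other libraries in this share, 4.04-fold above CHLA 05, although the TUBB3 level itself spanned 1.87-fold. TUBB6 also took its highest share in CHLA 06 (10.5% ± 0.12, n = 2, against 3.72% to 6.21% in the other lines). Among the alpha tubulins, TUBA1A held 53.0% in CHLA 02, 54.9% ± 4.13 (n = 2) in CHLA 04, 48.7% in CHLA 05 and 18.6% ± 3.88 (n = 2) in CHLA 06. TUBA1B held 69.0% ± 5.01 (n = 2) in CHLA 06, and TUBA1C held 12.4% ± 1.13 (n = 2) there but 0.22% ± 0.02 (n = 2) in CHLA 04.

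**Figure D3:**
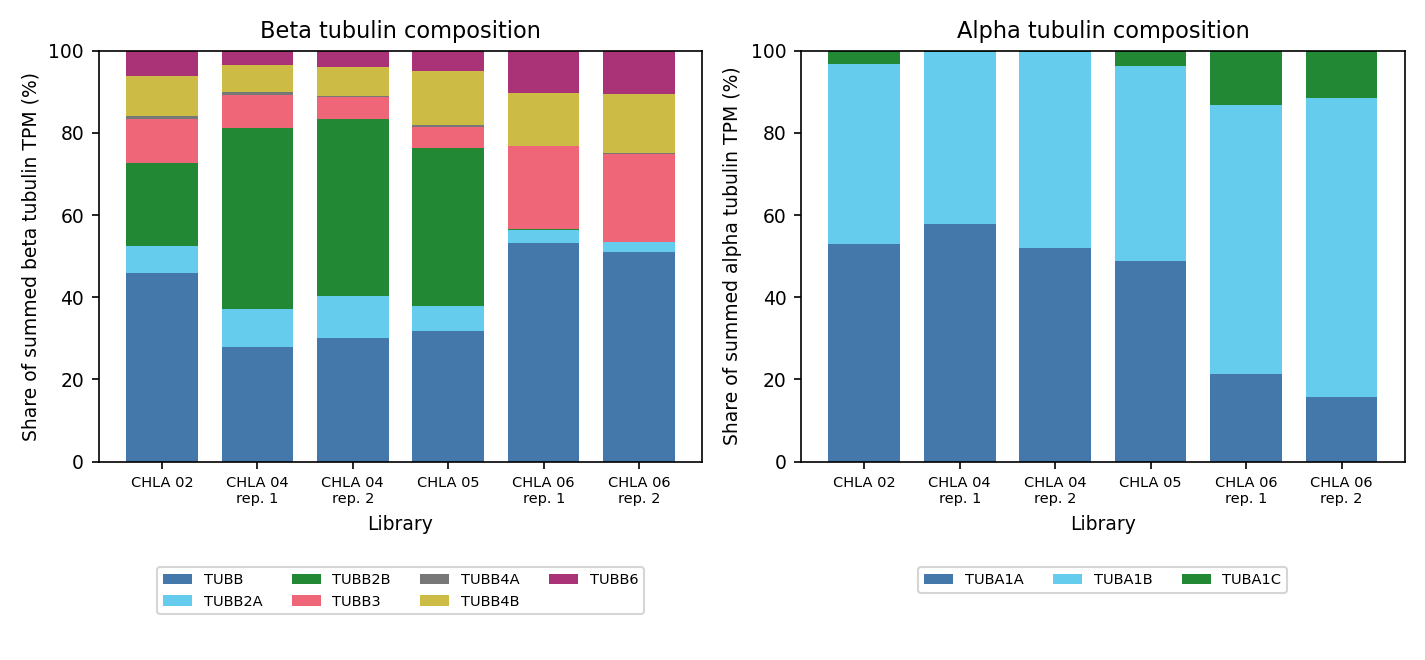
Share of each isotype in the summed beta tubulin TPM (left) and the summed alpha tubulin TPM (right), in percent, with 1 stacked bar per library. TUBB2B holds 43.6% of beta in CHLA 04 and 0.16% in CHLA 06, where TUBB holds 52.1%.

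Transcripts of a gene were not always assigned alike across libraries. In TUBB, 1 transcript held between 98.7% and 99.6% of the gene's TPM, and in TUBA1A between 93.6% and 97.2%. In TUBA1B, a short transcript of 835 bases (ENST00000550367) held 0.70% in CHLA 02 and 0.54% in CHLA 05, but 30.8% and 48.4% in CHLA 04 and 41.6% and 36% in CHLA 06. The transcript of 1627 bases (ENST00000336023) held 78.8% and 74.8% in CHLA 02 and CHLA 05 and between 31.9% and 49.5% in the other libraries. Its own level was 1189 TPM in CHLA 02, 1234 and 1247 in the CHLA 04 replicates, 1791 in CHLA 05, and 281 and 652 in the CHLA 06 replicates, so that CHLA 05 and not CHLA 04 was highest. TUBB3 divided the libraries in the same manner, since ENST00000315491 held 58.1% and 68.6% in CHLA 02 and CHLA 05 and between 95.2% and 97.9% in CHLA 04 and CHLA 06. TUBA1C did not, because ENST00000301072 (3001 bases) held 7.35% and 12.4% in CHLA 04 and between 56.4% and 81.4% elsewhere. In CHLA 04 that transcript rested on 15 and 44 reads. CHLA 04 and CHLA 06 are also the lines with technical replicates, so a difference in how libraries were made and a difference between lines cannot be told apart. These transcripts were named after their values were seen.

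**Figure D4:**
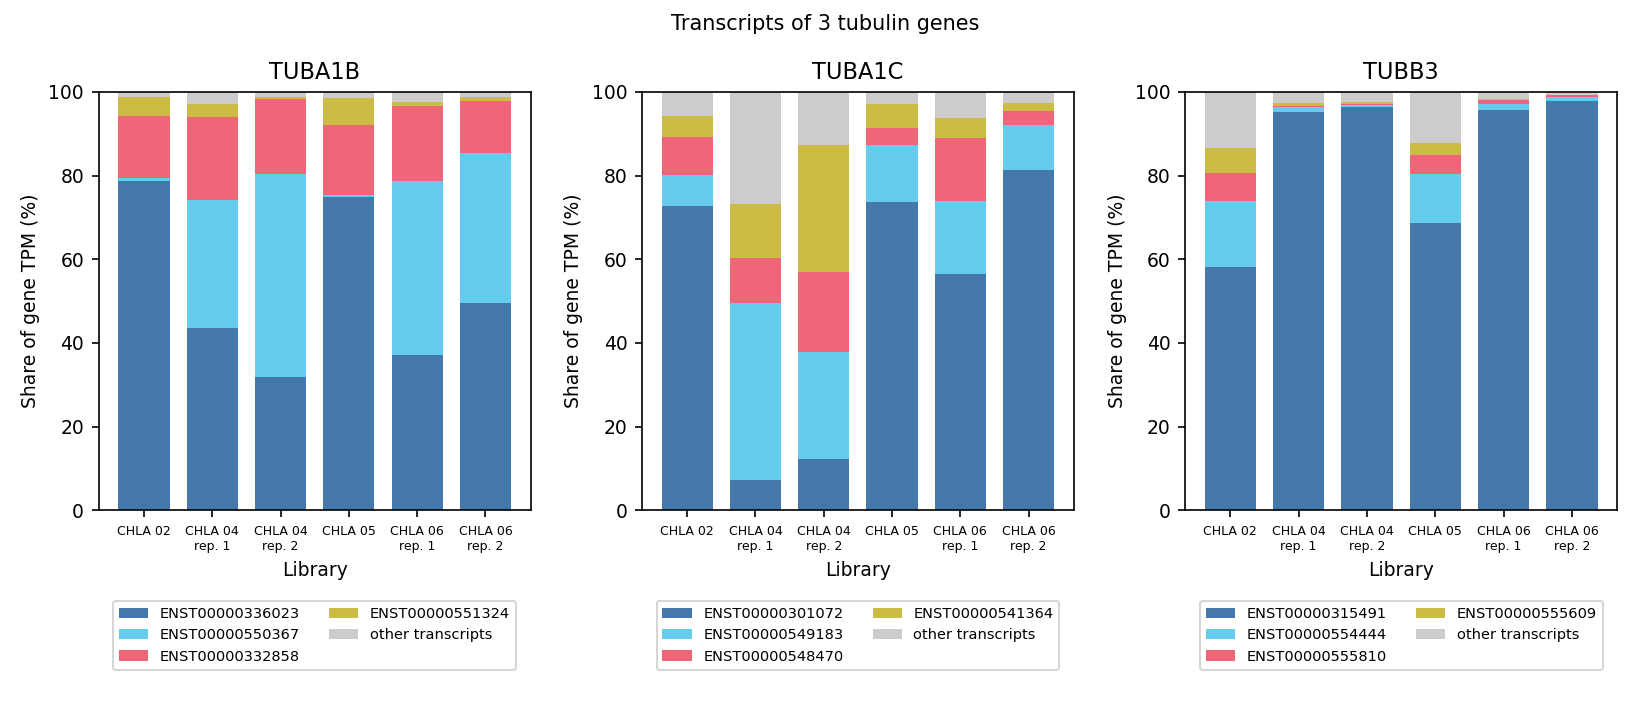
Share of each transcript in the TPM of TUBA1B, TUBA1C and the main TUBB3 gene, in percent, with 1 stacked bar per library and rarer transcripts in grey. ENST00000550367 takes between 30.8% and 48.4% of TUBA1B in CHLA 04 and CHLA 06 and under 1% in the other lines.

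The remaining genes of the tubulin system were read from fixed lists. Of 8 other alpha and beta tubulins, 3 reached 1 TPM, and TUBA4A alone spanned over 2-fold, from 0.62 TPM in a CHLA 06 library to 15.4 in a CHLA 04 library. None of 4 gamma, delta and epsilon tubulins did so (median span 0.60, log2). Of the machinery that folds tubulin, none of 8 subunits of the chaperonin CCT, none of 6 prefoldin subunits and 1 of 5 folding cofactors spanned over 2-fold, with medians of 0.46, 0.42 and 0.63, against 42.0% and a median of 0.86 over all genes. The 1 cofactor was TBCD. It had 72.8 TPM in CHLA 02, 155 and 105 in the CHLA 04 replicates, 108 in CHLA 05, and 48.7 and 44.6 in the CHLA 06 replicates. TTC5, which recognises nascent tubulin in the control of tubulin mRNA decay, stayed between 15.2 and 20.5 TPM.

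Of the enzymes that modify the tubulin tail, 6 of 17 (35.3%) spanned over 2-fold (median 0.94), a share near the 42.0% of all genes. TTLL7, a polyglutamylase that acts on beta tubulin, had 75.5 TPM in CHLA 02, 41.0 and 36.9 in the CHLA 04 replicates, 38.5 in CHLA 05, and 136 and 115 in the CHLA 06 replicates. Its highest values were in the line where TUBB2B was lowest. Among the 3 acetylation enzymes, the alpha tubulin acetyltransferase ATAT1 spanned over 2-fold, with 74.3 and 56.0 TPM in CHLA 04 and 24.2 and 15.7 in CHLA 06. Of 10 microtubule-associated proteins 6 spanned over 2-fold (median 1.62), and of 4 stathmins 3 did (median 2.57), beside the same 42.0% of all genes. MAP2, which bundles dendritic microtubules, had 298 TPM in CHLA 02, 745 and 624 in the CHLA 04 replicates, 915 in CHLA 05, and 7.20 and 5.41 in the CHLA 06 replicates. DCLK1, a doublecortin family kinase, was highest in CHLA 06 at 372 and 272 TPM and lowest in CHLA 04 at 23.2 and 28.5. STMN1, which sequesters tubulin dimers, had 538 TPM in CHLA 02, 1308 and 1135 in the CHLA 04 replicates, 874 in CHLA 05, and 221 and 190 in the CHLA 06 replicates.

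**Figure D5:**
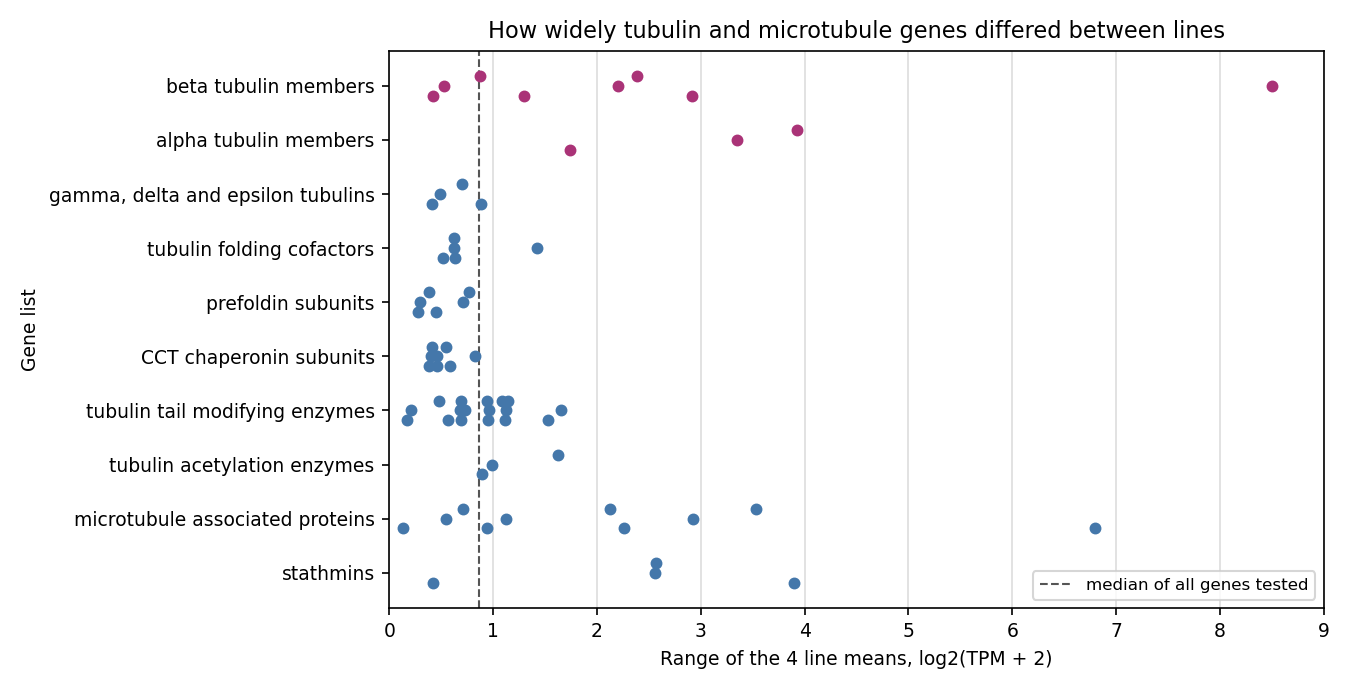
Span of the 4 line means in log2(TPM + 2) for each gene (points), by gene list, with the tubulin members in purple and the median of all genes, 0.86, as a dashed line. Folding factors lie mostly left of the line, and tubulin members reach 8.50.

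Because TUBB3 and TUBB2B are read as neuronal markers, other cell type markers were set beside them. Of all genes, 42.0% spanned over 2-fold, the share that stands beside the count of each marker list here. Of 11 neuronal markers, 9 reached 1 TPM and 7 of these spanned over 2-fold (median 2.20). Their summed level was 51.7 TPM in CHLA 02, 78.3 and 97.3 in the CHLA 04 replicates, 313 in CHLA 05, and between 47.8 and 48.6 in CHLA 06, with CHLA 02 and CHLA 06 close and CHLA 05 highest. Between CHLA 06 and CHLA 04, where 29.4% of all genes were past 2-fold, 4 neuronal markers were lower in CHLA 06 past 2-fold and 2 were higher. INA, a neuronal intermediate filament that made up most of the sum in CHLA 05, spanned most, with 4.08 TPM in CHLA 02, 15.1 and 40.1 in the CHLA 04 replicates, 216 in CHLA 05, and 0.20 and 0.58 in the CHLA 06 replicates. RBFOX3, the marker of mature neurons known as NeuN, was at no more than 1.11 TPM. The 2 markers below 1 TPM in all libraries were NEUROD1 and GAP43. Among 7 neural progenitor markers, 6 spanned over 2-fold, and FABP7, a radial glial protein, had 756 TPM in CHLA 02, 2236 and 4102 in the CHLA 04 replicates, 1400.1 in CHLA 05, and 0.57 and 1.43 in the CHLA 06 replicates. The summed progenitor level ran the other way, at 14690.3 TPM in CHLA 02, 7258 and 9390.3 in the CHLA 04 replicates, 10169 in CHLA 05, and 14753 and 19509 in the CHLA 06 replicates. Gene by gene, however, 3 of the 7 progenitor markers were past 2-fold lower in CHLA 06 than in CHLA 04 and 1 was higher. Their median difference was -0.43 (log2). Of 9 glial markers, 6 reached 1 TPM and all 6 spanned over 2-fold. GFAP had 23.9 TPM in CHLA 02, 45.3 and 47.9 in the CHLA 04 replicates, 151 in CHLA 05 and at most 0.04 in CHLA 06. The summed glial level was between 22.4 and 24.8 TPM in CHLA 06 and between 90.1 and 255.6 in the other lines. Of the 6 glial markers, 2 were past 2-fold lower in CHLA 06 than in CHLA 04 and 1 was higher. Of 7 blood and endothelial markers 2 reached 1 TPM, their sum lay between 0.42 and 7.14 TPM in the other lines and at 6.38 and 22.7 in the CHLA 06 replicates, and AIF1 and HBB were at 0 in all libraries. The part of such differences in cell state in the tubulin values was not tested.

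The study also mapped reads to LTR retroelements, on a TPM scale of its own. Of 720177 elements, 22 lay inside the span of a tubulin member and 9 of them had a value above 0, all within TUBB6 or TUBA1C. The highest mean belonged to an MLT1I element in TUBB6 (chr18:12327105-12327370), with 7.47 in CHLA 02, 25.1 and 13.5 in the CHLA 04 replicates, 28.9 in CHLA 05, and 34.7 and 18 in the CHLA 06 replicates. An MER21C element in TUBA1C (chr12:49254513-49254940) and an MER57D element in TUBB6 (chr18:12331338-12331500) followed. The values of MLT1I overlapped between CHLA 04 and CHLA 06, and reads of the host transcripts were not separated from reads of the element.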

How the data were processed

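Total RNA libraries (stranded, read pairs of 125 bases) of 4 AT/RT cell lines were analysed, 6 libraries in all. The authors trimmed reads with Trimmomatic after CASAVA 1.8.2, mapped them to GRCh38 with the CLCbio Genomics Workbench with default settings, and deposited a TPM value for each Ensembl transcript and, from a separate mapping, TPM per RepeatMasker LTR element. Program versions beyond CASAVA are not given in the sources used here. Groups came from the cell line labels.

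Here, TPM values of all transcripts with the same gene identifier were added, and differences were taken on log2(TPM + 2), the study's pseudocount, with technical replicates averaged per line. TPM times transcript length fell on whole multiples of 1 read for at least 99.3% of values (tolerance 0.02), which gave reads and depth. Depth was 16.3, 10.3, 17.4, 16.4, 18.8 and 20.5 in units of 1e+06 reads (CHLA 02, CHLA 04 replicates 1 and 2, CHLA 05, CHLA 06 replicates 1 and 2). A count model was not run, since each line had 1 biological sample. Counts of genes past 2-fold are read against the 16343 genes with 1 TPM or more in a library, and carry no test. The steps were tested on simulated data. Sequences came from the GRCh38 reference at the files' coordinates, and those of the alpha tubulins are not reported here. Windows of 125 bases were searched in GRCh38 and in the GENCODE transcripts of the other members, and a copy in either was counted. Python 3.11.15, pandas 2.3.3, numpy 2.4.6, scipy 1.17.1, matplotlib 3.10.9 and Biopython 1.88 were used.

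Named were all members, up to 3 genes per list with the widest span, the 5 genes nearest to TUBB3 and to the member with the widest span, and the 3 LTR elements with the highest mean TPM within members. RBFOX3, NEUROD1, GAP43, AIF1, HBB, NQO2, SLC22A23, C1QL4, MC1R and single transcripts fall outside this rule and were chosen after their values were seen. Members and lists were chosen with earlier results of these data known. Alternatives tried were other pseudocounts, thresholds, filters and scalings, the most abundant transcript, and leaving out each technical replicate. Recovered reads without division by length, and ratios without 1 technical replicate, were added after the data were seen.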

Additional observations from a re-analysis of the deposited data

How the results depend on the processing

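Of 137 values recomputed for the comparisons under an alternative, 123 stayed within 1.5 times of a count or within the technical spread of a ratio. Of 66 differences between lines, 8 turned sign without 1 technical replicate, none of them past 2-fold and each at most 0.33 (log2) in size. Of the 11 genes, those past 2-fold over the lines numbered between 8 and 9 without 1 technical replicate, against 41.4% to 47.3% of all genes. TUBB3 was the added gene with the most abundant transcript, the higher technical replicate, median ratio scaling, recovered reads without division by length, or without CHLA 06 replicate 1. For CHLA 05 against CHLA 04 the count of 1 became 2 on quantile-normalized values and with a pseudocount of 0.1, 5 at a threshold of 1.5-fold, and lay between 1 and 2 without 1 technical replicate. For CHLA 02 the count became 8 against CHLA 06 at 1.5-fold (21.2% of all genes) and 3 against CHLA 04 at 3-fold (6.87%). Against CHLA 05 it became 6 at 1.5-fold (38.3%) and 1 at 3-fold (9.96%). The span of summed alpha tubulin was 6.86-fold on quantile-normalized values and between 4.11 and 6.48 without 1 technical replicate, and that of beta between 1.88 and 2.60. The span of the TUBB3 share was 5.82-fold with the most abundant transcript, 4.91 on quantile-normalized values, 3.90 with both identifiers summed, 4.19 on recovered reads, and between 3.93 and 4.16 without 1 technical replicate. The cause of these shifts was not tested. No paired analysis was possible because each line had 1 biological sample and no test was made between lines. Depth limited TUBB2B and TUBB4A in CHLA 06, which rested on 23 to 52 reads.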
